A study of Mus musculus with 7 samples.

Results

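The expression of 10 genes of the T cell costimulatory and checkpoint pathways was compared in microglia of old and young ischemic male mice: Cd80, Cd86, Cd40, Cd274, Pdcd1lg2, Icosl, Cd276, Havcr2, Lag3 and Tnfsf9. They were taken by gene symbol, not by their values, from the 50686 gene rows of each library, and each symbol matched 1 row. Microglia were sorted by FACS from the forebrain of C57BL/6 males 4 days after a 45 min transient occlusion of the middle cerebral artery. Young mice were 3 to 4 months of age (4 libraries, Young 1 to 4) and old mice were 21 to 22 months of age (3 libraries, Old 1 to 3). The mice of both ages were ischemic, and apart from anesthesia and analgesia at surgery no drug is named for them. In both ages the cells were CD11b+ CD45+ and Bodipy+, Bodipy being a dye for the neutral lipid of lipid droplets. Sham-operated mice and Bodipy- cells are therefore not part of the comparison. Each library was made from 1 mouse.

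A T cell that recognizes a peptide on an antigen-presenting cell needs further signals to respond. Costimulatory molecules of the B7 and TNF families on the presenting cell give such signals through receptors on the T cell, and checkpoint molecules restrain it. In the brain, microglia carry several of these molecules at low levels and change them with injury and inflammation. The set is mixed in role: CD80, CD86, PD-L1 (Cd274), PD-L2 (Pdcd1lg2), ICOS ligand, B7-H3 (Cd276) and CD137 ligand (Tnfsf9) are ligands, CD40 is the receptor on the presenting cell for CD40 ligand of T cells, and TIM-3 (Havcr2) and LAG-3 are inhibitory receptors, best known from T cells, that myeloid cells also express.

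All 10 members were tested, since each had over 10 expected counts in 1 library or more, Pdcd1lg2 only through its old libraries, as its young counts were 6 to 8. A gene that enters this way is bound to have its highest count in an old library, so Pdcd1lg2 supports no count over the members, and each count is also given for the 9 that had over 10 counts in both ages. None of the 10 passed an adjusted p of 0.05 between ages in the quasi-likelihood test of edgeR (p adjusted by Benjamini-Hochberg over the 17559 genes tested), which 0.803% of all genes passed (0.57% higher and 0.233% lower in old mice). Likewise 0 members passed with limma-voom (0.814% of all genes), and 1, Pdcd1lg2, passed with DESeq2 (7.61% of all genes). An unadjusted p under 0.05 was found for 3 members, Pdcd1lg2, Cd276 and Cd40, against 18.9% of all genes, and for 2 of the 9. The same 3 were the members whose CPM did not overlap between ages, against 17.7% of all genes, with Pdcd1lg2 and Cd40 higher in old mice (8.67% of all genes) and Cd276 lower (9.07%). Among the 9 there were 2 without overlap, 1 in each direction. In fold changes, 4 of 10 members were above 0, against 48.8% of all genes, and the median log2 fold change was -0.20 against -0.01 over all genes. Of the 9, 3 were above 0, with a median of -0.29. Here CPM is the count scaled to library size after TMM normalization, and it serves to compare 1 gene between libraries. TPM, which the authors' quantification divides by transcript length, serves to compare levels between genes.

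**Figure D1:**
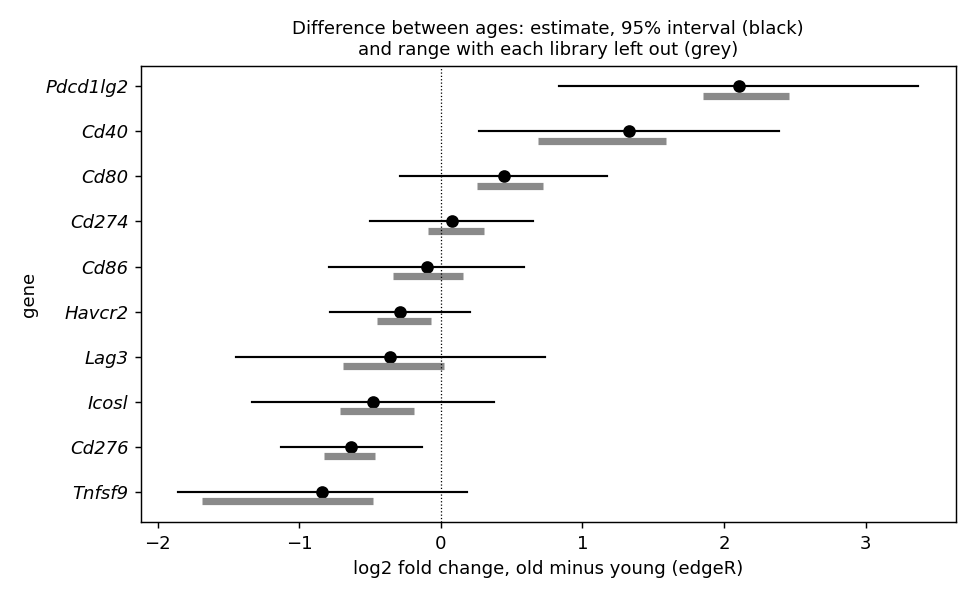
The log2 fold change of each member, old minus young, from edgeR (x axis) is drawn as a point with its 95% confidence interval in black, and the grey bar below it spans the values obtained with each of the 7 libraries left out in turn. The intervals of Pdcd1lg2, Cd40 and Cd276 do not include 0, and the grey bars of Cd274, Cd86 and Lag3 cross 0.

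The members covered a wide range of levels, with Lag3 the highest and Pdcd1lg2 the lowest in both ages. In young mice the mean TPM was 347 ± 145 for Lag3, 143 ± 35.3 for Cd86, 136 ± 17.8 for Havcr2 and 126 ± 26.2 for Tnfsf9 (SD, n = 4). These 4 overlapped with their neighbours in the order, although Lag3 was above Cd86 in each library. Below them, Icosl had a TPM of 26.2 ± 10.1, and its range did not overlap with that of Tnfsf9. Then followed Cd274 with 12.5 ± 2.54, Cd276 with 9.17 ± 3.37, Cd40 with 4.90 ± 1.92 and Cd80 with 3.98 ± 1.64, each overlapping with the next. Pdcd1lg2 was the lowest, at 0.133 ± 0.025, below every value of Cd80. In old mice the order was that of the young apart from an exchange of Cd40, at 10.9 ± 6.51, with Cd276, at 5.35 ± 1.64 (SD, n = 3), which also overlapped. The means of the others in old mice were 258 ± 137 for Lag3, 133 ± 46.1 for Cd86, 105 ± 31.7 for Havcr2, 69.0 ± 58.8 for Tnfsf9, 18.0 ± 7.49 for Icosl, 12.6 ± 4.25 for Cd274, 5.08 ± 1.31 for Cd80 and 0.540 ± 0.236 for Pdcd1lg2. Thus only the steps from Tnfsf9 to Icosl and from Cd80 to Pdcd1lg2 separated neighbours without overlap, in both ages. Lag3 was the most abundant member in all 7 libraries, with 28.9% to 49.6% of the summed TPM of the 10.

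**Figure D2:**
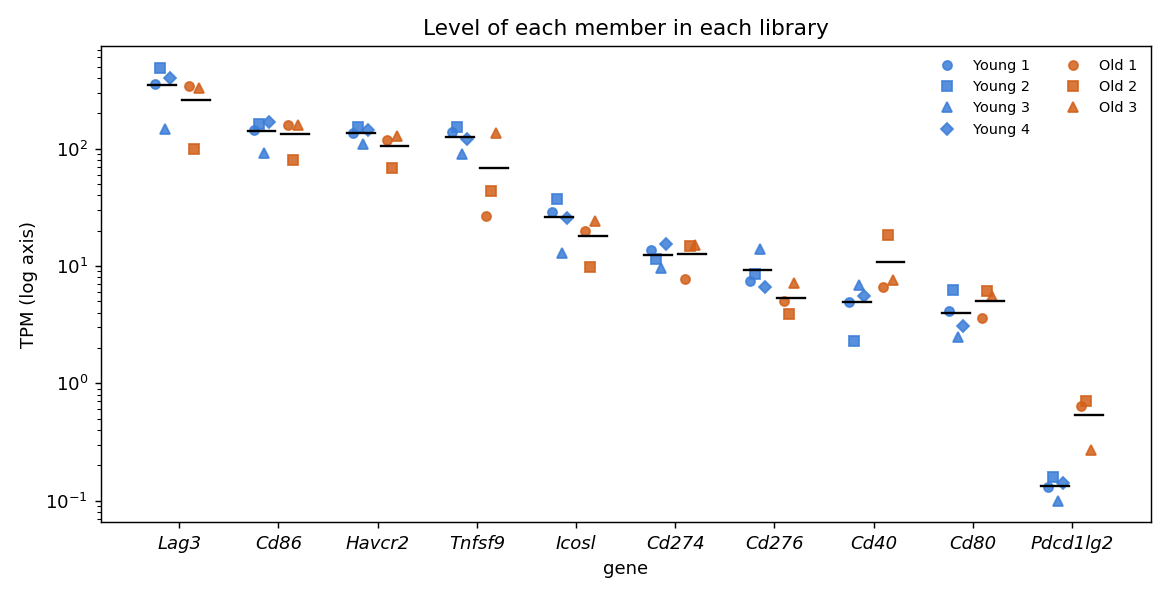
TPM of each member on a log axis, with 1 symbol per library (blue, 4 young; orange, 3 old; the symbol shape gives the replicate) and a black line at the group mean. Lag3 is highest in every library, and the 3 old values of Pdcd1lg2, 0.27 to 0.71, lie above the 4 young values, 0.10 to 0.16.

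The sorted cells were checked for the label microglia. P2ry12, a purinergic receptor of microglia, ranged from 441 to 1767 CPM in the young and from 341 to 1373 in the old libraries, and Tmem119 from 1027 to 2269 and from 850 to 1873. The summed CPM of 10 microglia markers was 19685 to 28527 in the young libraries, 23510 in Old 1, 21458 in Old 3 and 9938 in Old 2. Of the 9 microglia markers tested, 8 were below 0 in log2 fold change, 1 (Fcrls) had an unadjusted p under 0.05, and 0 passed with edgeR or limma-voom. In Old 2 the 8 monocyte markers summed to 2867 CPM, against 181 to 484 in young mice, 451 in Old 1 and 215 in Old 3. The 9 dendritic cell markers summed to 13.6 to 24.4 CPM in young mice and to 34.3, 78.2 and 27.2 in Old 1, 2 and 3, without overlap. The 8 border macrophage markers summed to 806 to 1370 CPM in young mice and to 1021, 2054 and 801 in old mice. Old 2 therefore stood apart from the other libraries. Log2 fold changes without it are given for the members other than Tnfsf9 and for Cd48 and Cd24a. For the cell type markers they are not given, although several, such as Ccr7 and Flt3, were far higher in Old 2. In these bulk samples fewer cells of a type and less RNA per cell cannot be told apart.

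CD80 and CD86 are the B7 ligands of CD28, which activates T cells, and of CTLA-4, which restrains them. Cd80 (ENSMUSG00000075122, GRCm38 chr16:38455561-38496335, plus strand) had 4.85, 7.16, 2.92 and 3.91 CPM in Young 1 to 4 and 4.86, 7.95 and 6.39 in Old 1 to 3. The highest value was in Old 2, the lowest in Young 3, and the ages overlapped. Its mean was 4.71 ± 1.81 CPM in young (SD, n = 4) and 6.40 ± 1.55 in old mice (SD, n = 3), with a log2 fold change of 0.44 (SE 0.32, edgeR adjusted p = 0.488, 95% interval -0.29 to 1.18), and 0.26 without Old 2. Cd86 (ENSMUSG00000022901, chr16:36603869-36666081, minus strand) had 221, 239, 132 and 272 CPM in young and 262, 123 and 219 in old libraries. Young 3 and Old 2 had less than the other 5 libraries, which lay between 219 and 272. The mean was 216 ± 59.7 CPM in young (SD, n = 4) and 201 ± 71.4 in old mice (SD, n = 3). The log2 fold change was -0.10 (SE 0.30, edgeR adjusted p = 0.885, 95% interval -0.79 to 0.59), and it was 0.16 without Old 2 and 0.03 without Young 4. By TPM, Cd86 exceeded Cd80 26.1 to 54.7 times in young libraries, 44.2 times in Old 1, 29.0 times in Old 3 and 13.05 times in Old 2, the lowest ratio of the 7.

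CD40 binds CD40 ligand and signals through TRAF adaptors to NF-kB, by which presenting cells are licensed to activate T cells. Cd40 (ENSMUSG00000017652, chr2:165055627-165072948, plus strand) had 3.62, 1.63, 5.0 and 4.71 CPM in young and 6.44, 16.1 and 5.64 in old libraries. All old values were above all young ones, with Old 2 at 16.1 far from the other old libraries and Young 2 the lowest. By TPM, which was 4.95, 2.28, 6.86 and 5.50 in young and 6.61, 18.4 and 7.67 in old libraries, Old 1 was below Young 3, so that the ages overlapped. The mean was 3.74 ± 1.53 CPM in young (SD, n = 4) and 9.40 ± 5.84 in old mice (SD, n = 3), and the log2 fold change was 1.33 (SE 0.46, edgeR adjusted p = 0.180, unadjusted p = 0.0198, 95% interval 0.27 to 2.39). Without Old 2 it was 0.69 (edgeR adjusted p = 0.412). The monocyte, dendritic cell and border macrophage markers were also highest in Old 2, and their part in the level of Cd40 was not tested.

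PD-L1 and PD-L2 both bind PD-1, the checkpoint receptor of activated T cells, and PD-L2 is known mainly from dendritic cells and macrophages. Their genes are neighbours on chromosome 19 and on the same strand, Cd274 (ENSMUSG00000016496) at chr19:29367455-29388095 and Pdcd1lg2 (ENSMUSG00000016498) at chr19:29410919-29471161, with 22823 bases between them. Because the genes lie side by side and differed in level and in their values by age, the 250 bases before the RefSeq start of each are shown (GRCm38.p6, chr19:29367188-29367437 and chr19:29410669-29410918, plus strand), with CpG dinucleotides in capitals.
Cd274: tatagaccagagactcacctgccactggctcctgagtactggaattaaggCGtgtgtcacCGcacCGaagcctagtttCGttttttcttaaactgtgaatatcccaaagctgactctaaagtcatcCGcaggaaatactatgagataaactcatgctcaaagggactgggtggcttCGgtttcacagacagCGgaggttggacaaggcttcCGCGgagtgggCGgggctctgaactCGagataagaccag
Pdcd1lg2: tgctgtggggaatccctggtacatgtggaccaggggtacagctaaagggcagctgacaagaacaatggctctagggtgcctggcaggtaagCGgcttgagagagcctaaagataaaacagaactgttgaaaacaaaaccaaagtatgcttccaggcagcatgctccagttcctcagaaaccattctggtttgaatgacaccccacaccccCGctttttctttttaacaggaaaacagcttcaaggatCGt
The Cd274 window holds 11 CpG and 50.4% GC, and the Pdcd1lg2 window 3 CpG and 48.4% GC, while the median over 32851 RefSeq promoters of this length was 6 CpG and 52.4% GC.

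Cd274 had 35.0, 28.4, 24.1 and 41.9 CPM in young and 22.4, 41.8 and 38.2 in old libraries. Old 1 was the lowest of the 7 and Young 4 the highest, and the ages overlapped. The mean was 32.4 ± 7.8 CPM in young (SD, n = 4) and 34.1 ± 10.3 in old mice (SD, n = 3), with a log2 fold change of 0.08 (SE 0.25, edgeR adjusted p = 0.894, 95% interval -0.50 to 0.65). Its sign turned without Old 2 (-0.09), Old 3 (-0.01) or Young 3 (-0.04) and on the TPM scale (-0.03). The annotation places AC119228.1 on the opposite strand, sharing 511 exon bases with Cd274, and it has no row of its own in the deposited tables. Since the libraries were not stranded, reads of such a pair cannot be told apart.

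Pdcd1lg2 had few counts, namely 7, 8, 6 and 8 in Young 1 to 4 and 28, 35 and 14 in Old 1 to 3. These were 0.152, 0.179, 0.118 and 0.172 CPM in young and 0.834, 0.894 and 0.302 in old libraries. All old values were above all young ones on the CPM and TPM scales, with Old 3 closest to the young. The exact Poisson 95% interval of the count, which covers counting error only, was 7.65 to 23.5 in Old 3 and overlapped with those of all 4 young libraries, which reached up to 15.8, whereas it was 18.6 to 40.5 in Old 1 and 24.4 to 48.7 in Old 2, above each young interval. The mean was 0.155 ± 0.0275 CPM in young (SD, n = 4) and 0.677 ± 0.326 in old mice (SD, n = 3), a ratio of 4.37. The log2 fold change was 2.10 (SE 0.56, edgeR adjusted p = 0.112, unadjusted p = 0.00475, 95% interval 0.83 to 3.37). Without a filter on low counts, where entry does not depend on the old libraries, it was 2.08 (edgeR adjusted p = 0.150). With DESeq2 it was 2.13 (adjusted p = 0.0248), and this was the only one of 18 other settings in which a member passed. With 1 library left out it was between 1.85 (without Old 2) and 2.46 (without Old 3). By TPM, Cd274 exceeded Pdcd1lg2 71.5 to 110 times in young and 12.02 to 56.4 times in old libraries, a ratio that restates the values of Pdcd1lg2, since those of Cd274 overlapped.

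The summed CPM of the dendritic cell markers was also without overlap between ages and the highest in Old 2, as was Pdcd1lg2. Singly, 7 of the 9 overlapped, and 2, both part of that sum, did not, against 17.7% of all genes. Both were higher in old mice (8.67% of all genes). Of these 2, Ccr7 had 0.412 to 1.38 CPM in young mice and 3.31, 44.8 and 3.07 in old mice, and Cd209a 0.086 to 1.48 and 6.85, 5.09 and 4.49. Flt3, a defining receptor of dendritic cells, was at 0.151 to 1.26 CPM in young mice and at 0.983, 6.72 and 1.08 in old mice, with overlap, and the transcription factor Zbtb46 was at 2.26 to 3.76 and at 1.04, 2.40 and 2.12. Clec9a had over 10 counts only in old libraries. Of the other 8, 5 were above 0 in log2 fold change (median 0.65), against 48.8% of all genes. The 3 below 0 were Zbtb46, Xcr1 and Itgae, named after their values were seen. An unadjusted p under 0.05 was found for 4 of the 8 (18.9% of all genes). Of the 9, 0 passed with edgeR, and 1, Cd209a, passed with limma-voom and with DESeq2 (0.814% and 7.61% of all genes). None was at 0 in any library. The part of dendritic cell transcripts in the level of Pdcd1lg2 was not tested. A930007I19Rik lies on the opposite strand within the span of Pdcd1lg2 and had 135 to 420 counts, but the annotation gives no shared exon bases.

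**Figure D3:**
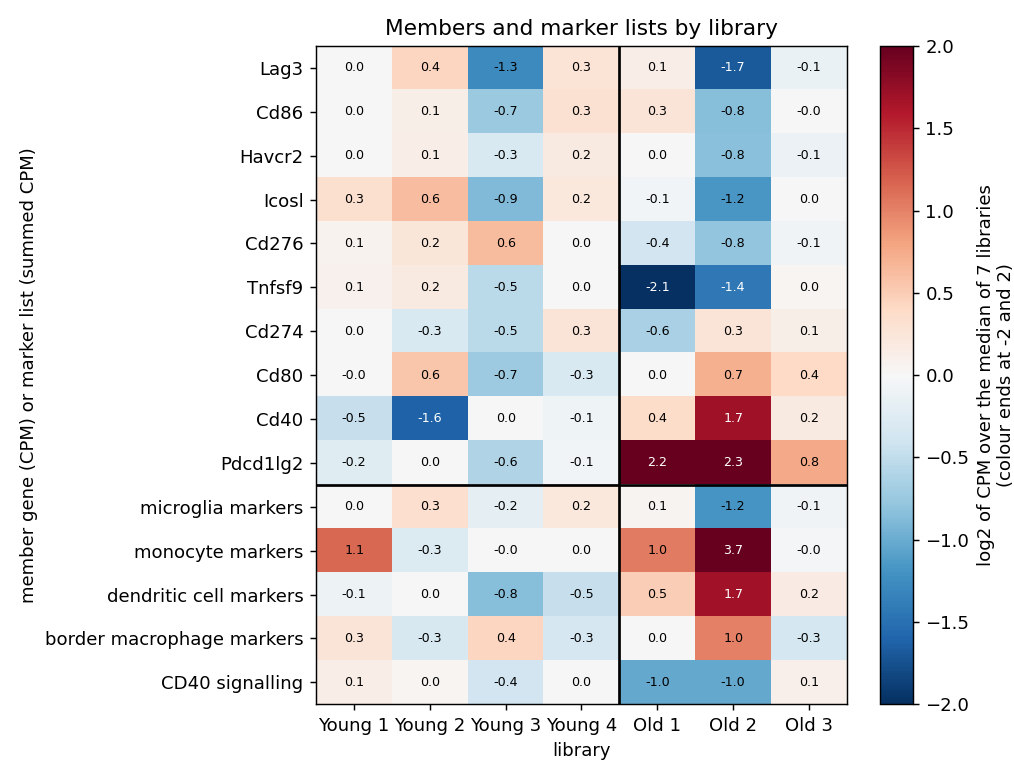
Each cell gives the log2 ratio of the CPM of a member, or of the summed CPM of a marker list, to the median of that row over the 7 libraries, with blue for lower and red for higher values (the colour ends at -2 and 2). Old 2 holds the lowest value of 5 members and the highest of 3, beside the lowest microglia and the highest monocyte, dendritic cell and border macrophage markers.

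ICOS ligand binds ICOS, a costimulatory receptor of activated and follicular helper T cells. Icosl (ENSMUSG00000000732, chr10:78069302-78083913, plus strand) had 55.7, 69.0, 24.3 and 52.0 CPM in young and 43.1, 20.1 and 44.9 in old libraries. Old 2 and Young 3 were the lowest, and the ages overlapped. The mean was 50.2 ± 18.8 CPM in young (SD, n = 4) and 36.0 ± 13.8 in old mice (SD, n = 3), with a log2 fold change of -0.48 (SE 0.38, edgeR adjusted p = 0.519, 95% interval -1.33 to 0.37) that was -0.19 without Old 2.

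B7-H3, the product of Cd276, is a B7 family member mostly described as an inhibitor of T cells, whose receptor is not settled. Cd276 (ENSMUSG00000035914, chr9:58524298-58555437, minus strand) had 18.5, 20.7, 27.1 and 17.6 CPM in young and 13.6, 10.2 and 16.8 in old libraries. All old values were below all young ones, by a margin of 17.6 in Young 4 to 16.8 in Old 3. By TPM the values were 7.43, 8.55, 14.1 and 6.62 in young and 5.08, 3.86 and 7.11 in old libraries, so that Old 3 was above Young 4. The mean was 21.0 ± 4.31 CPM in young (SD, n = 4) and 13.5 ± 3.30 in old mice (SD, n = 3), with a log2 fold change of -0.63 (SE 0.22, edgeR adjusted p = 0.176, unadjusted p = 0.0185, 95% interval -1.13 to -0.14). It was -0.47 without Old 2, where the microglia markers were also lowest, and -0.32 (edgeR adjusted p = 0.335) without both Old 2 and Young 3. The expected count of Cd276 was whole, within a tolerance of 0.001, in 1 of 7 libraries, a fractional count being one in which RSEM divided reads between genes, and Gm10657 on the opposite strand shares 416 exon bases with it and had 1.22 to 18.6 counts. Its promoter is shown because it was the richest in CpG among the 6 members with a matched promoter, with 29 CpG and 77.6% GC. The 250 bases before the RefSeq start are given (GRCm38.p6 chr9:58555034-58555283, written in the direction of the gene, CpG in capitals). That window lies inside the annotated span of Cd276, since the RefSeq start is downstream of the annotated one.
Cd276: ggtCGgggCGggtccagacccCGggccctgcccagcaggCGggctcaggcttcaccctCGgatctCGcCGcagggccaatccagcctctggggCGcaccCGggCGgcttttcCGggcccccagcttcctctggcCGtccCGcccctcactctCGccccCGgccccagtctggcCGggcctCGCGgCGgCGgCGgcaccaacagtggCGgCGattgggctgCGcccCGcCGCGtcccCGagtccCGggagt

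RefSeq promoters were matched for 6 of the 10 members, those of Cd80, Havcr2 and Icosl in addition to the 3 shown, and Cd86, Cd40, Lag3 and Tnfsf9 were not matched. The 250 bases were searched on both strands for TTCNNNGAA (the gamma-activated site), GAAA and GAAA with any 2 bases between them (the core of the interferon-stimulated response element) and GGG and TTTCC with any 2 bases between them (a kappa B site). None of the 6 holds any of them, which are found in 7.02%, 2.98% and 1.41% of all 32851 promoters. The windows of Cd276 and Cd80 lie inside the annotated gene span, and that of Icosl does in part, since the RefSeq start is downstream of the annotated one. Further from the RefSeq start the genes were not searched.

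CD137 ligand, encoded by Tnfsf9, binds CD137 on activated T cells and is carried by activated myeloid cells. Tnfsf9 (ENSMUSG00000035678, chr17:57105325-57107757, plus strand) had 117, 125, 76.0 and 110 CPM in young and 26.0, 40.7 and 113 in old libraries. Old 1 and Old 2 were below each young library, but Old 3 was among the young, so that the ages overlapped. The mean was 107 ± 21.4 CPM in young (SD, n = 4) and 59.8 ± 46.5 in old mice (SD, n = 3). The log2 fold change was -0.84 (SE 0.45, edgeR adjusted p = 0.349, 95% interval -1.86 to 0.18). Without Old 3 it was -1.68 (edgeR adjusted p = 0.0532), and without Old 1 it was -0.48. Gm11110 on the opposite strand shares 192 exon bases with it and had 11 to 52 counts.

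Other values that moved with Tnfsf9 within the old group are given here. The summed CPM of 15 genes of CD40 signalling (TRAF adaptors, NF-kB subunits and their regulators) was 3631, 3413, 2556 and 3319 in young libraries, 1629 in Old 1, 1633 in Old 2 and 3545 in Old 3. Nfkbia and Tnfaip3, named after their values were seen, held 64.2% to 81.4% of this sum, and the other 13 genes summed to 622 to 843 CPM in young libraries and to 540, 584 and 660 in Old 1, 2 and 3. For 12 immediate early genes, a list chosen after the values were seen, the sum was 22117, 20986, 16567 and 15987 in young and 9516, 11003 and 18129 in old libraries. Both sums were lowest in Old 1 and Old 2. Since the list was chosen for its values, no count of its genes is given. Genes annotated as ribosomal RNA, those of the mitochondrial genome included, took 4.14% to 4.99% of the counts in young libraries. They took 2.21%, 2.93% and 3.37% in Old 1, 2 and 3, without overlap. Old 1 had the lowest total count, 36574083, and the fewest genes above 0, 19846. The part of these values in the level of Tnfsf9 was not tested.

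**Figure D4:**
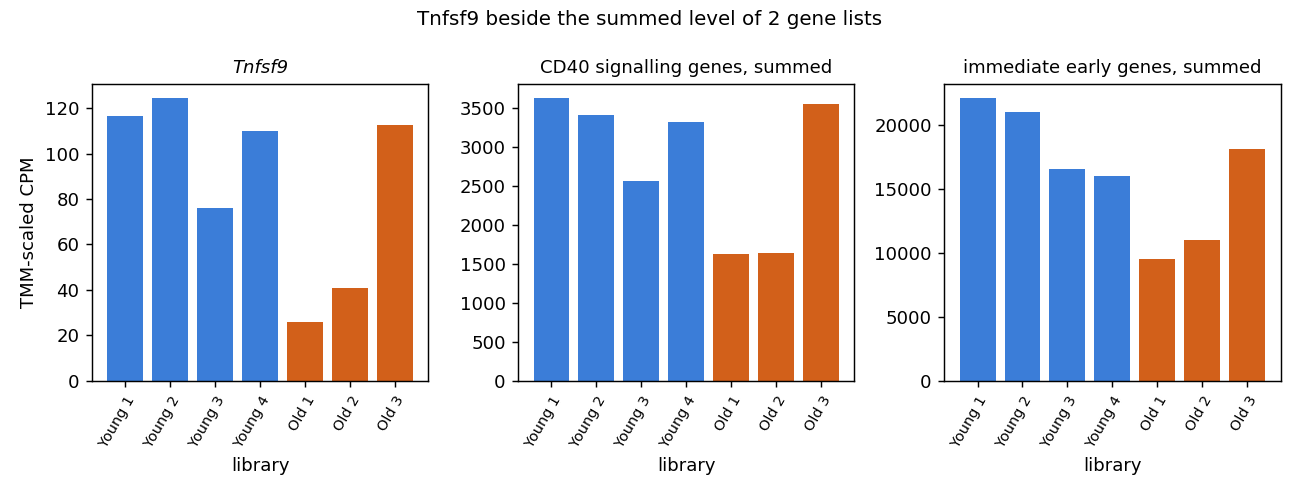
Bars give TMM-scaled CPM in each library (blue, young; orange, old) of Tnfsf9, of 15 CD40 signalling genes summed and of 12 immediate early genes summed. In all 3 panels Old 1 and Old 2 are the lowest, and Old 3 lies within the young range. The immediate early list was chosen after the values were seen. Nfkbia and Tnfaip3 hold 64.2% to 81.4% of the CD40 signalling sum.

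TIM-3 binds galectin-9 and phosphatidylserine, among other ligands, and is known to be expressed by microglia. Havcr2 (ENSMUSG00000020399, chr11:46454935-46481255, plus strand) had 260, 282, 209 and 294 CPM in young and 258, 144 and 239 in old libraries. Old 2 was the lowest, followed by Young 3. The mean was 261 ± 37.3 CPM in young (SD, n = 4) and 214 ± 61.0 in old mice (SD, n = 3), with a log2 fold change of -0.29 (SE 0.22, edgeR adjusted p = 0.500, 95% interval -0.78 to 0.20), which was -0.07 without Old 2. The expected count was whole, within the same tolerance, in 2 of 7 libraries.

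LAG-3 is related to CD4 and binds MHC class II. Lag3 (ENSMUSG00000030124, chr6:124904361-124911705, minus strand) had 494, 666, 204 and 594 CPM in young and 541, 154 and 452 in old libraries. Old 2 and Young 3 were the lowest, below each of the other 5 libraries. The mean was 489 ± 203 CPM in young (SD, n = 4) and 382 ± 203 in old mice (SD, n = 3), with a log2 fold change of -0.36 (SE 0.48, edgeR adjusted p = 0.729, 95% interval -1.45 to 0.74), and of 0.02 without Old 2. The ratio of Lag3 to Havcr2 by TPM was 1.33 in Young 3 and 1.46 in Old 2 and 2.60 to 3.24 in the other 5 libraries.

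Across the members, 2 libraries thus departed from their groups. Old 2 had the lowest CPM of Cd86, Icosl, Cd276, Havcr2 and Lag3 and the highest of Cd80, Cd40 and Pdcd1lg2. Young 3 had the lowest CPM of Cd80 and Pdcd1lg2 and the highest of Cd276, and it was the lowest young library for Cd86, Icosl, Havcr2, Lag3 and Tnfsf9. P2ry12 followed the same order, at 441 CPM in Young 3 and 341 in Old 2 against 1123 to 1767 in the others. The part of cell composition in these values was not tested. With both libraries left out, an alternative chosen after the values were seen, 0 members passed with edgeR, and the log2 fold change was 1.74 for Pdcd1lg2 (edgeR adjusted p = 0.286) and 0.86 for Cd40 (edgeR adjusted p = 0.311).

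RSEM also gives each gene a transcript length, weighted by the abundance of its transcripts, which moves when the mix of transcripts moves. The effective length, which is this length corrected for the size of the fragments, varied by over 1 base for 5 of the members, and for 2 of these, Cd86 and Icosl, each old library was below each young one. Over all tested genes whose effective length varied, the ages did not overlap in 19.4%, and in 6.34% the old libraries were the lower ones. For Cd86 the length was 2162, 2159, 2085 and 2145 bases in young and 2066, 2005 and 2003 in old libraries, with a mean of 2138 ± 35.8 (SD, n = 4) and 2025 ± 35.7 (SD, n = 3). The annotation gives Cd86 a coding transcript of 2539 bases and 3 noncoding ones of 548 to 975 bases, so a lower weighted length is a larger estimated share of short transcripts. For Icosl the values were 2725, 2716, 2700 and 2695 bases in young and 2686, 2656 and 2676 in old libraries, a much smaller difference. With the lengths as an offset the log2 fold change of Cd86 was -0.02.

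**Figure D5:**
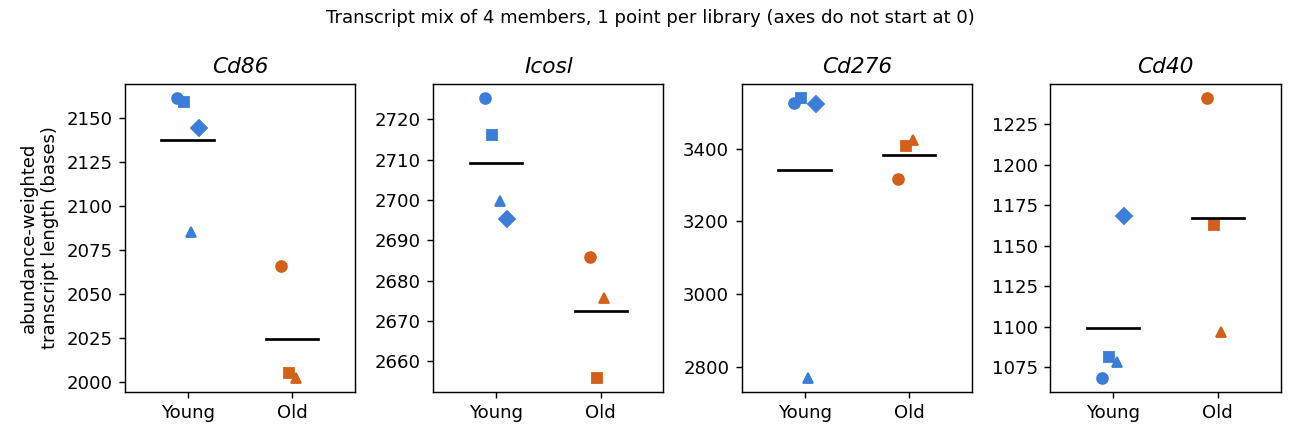
The abundance-weighted transcript length in bases of 4 members, with 1 point per library (blue, young; orange, old; symbol shapes as in the plot of TPM) and a line at the group mean; the axes do not start at 0. The old points of Cd86 and Icosl lie below the young ones, and Young 3 stands apart for Cd276, at 2770 bases against 3523 to 3541 in the other young libraries.

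Genes of the T cell side of the costimulatory and checkpoint pathways mostly had few counts. The list holds receptors of members and Cd40lg, the ligand of CD40. It also holds receptors of other ligands, such as Cd226, Tnfrsf18 and Btla, so its counts are not about partners of the members alone. Of the 12 genes on the list 9 were tested, and 2 of these, Cd226 and Tnfrsf18, only through their old libraries. Of the other 7, 6 were above 0 in log2 fold change (median 0.36), 0 had an unadjusted p under 0.05, and 0 passed with edgeR, limma-voom or DESeq2. Cd226 had 0 counts in each young library and 15, 5 and 5 in Old 1, 2 and 3. Cd28 was at 3.53 ± 1.53 CPM in young (SD, n = 4) and 3.58 ± 1.71 in old mice (SD, n = 3), and Icos at 1.31 ± 0.542 and 1.02 ± 0.347. Pdcd1, which encodes PD-1, was at 22.5 ± 5.06 CPM in young (SD, n = 4) and 28.8 ± 9.05 in old mice (SD, n = 3), with 18.4 CPM in Old 2 and 34.9 in Old 1. Btla had 0.0196 to 0.336 CPM in young and 0.209 to 1.15 in old libraries, Tnfrsf18 0 to 0.108 and 0 to 0.409, and Tnfrsf9, the receptor of CD137 ligand, 0.0217 to 0.255 and 0 to 0.997. Cd40lg, on chromosome X, had counts of 0 in all young libraries and of 0, 6 and 3 in the old, and Ctla4 had 0, 3, 0 and 0 in the young and 0, 5 and 3 in the old.

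T cell transcripts were few in all libraries. Cd3e had 1 count in Young 3, 22 in Old 2 and 21 in Old 3, and 0 in Young 1, Young 2, Young 4 and Old 1. Trac had 0 to 4 counts in young mice and 4, 31 and 30 in Old 1, 2 and 3. Of 17 T cell markers, 10 had over 10 counts only in old libraries. Of the other 7, 4 were above 0 in log2 fold change and 3 had an unadjusted p under 0.05 (18.9% of all genes). Of the 17, 0 passed with edgeR or limma-voom and 7 with DESeq2 (7.61% of all genes). Of those called by DESeq2, Lat alone had over 10 counts in both ages. Among the smallest p were those of Cd8b1 (0 to 1 count in young, 14, 12 and 21 in old libraries), Cd8a (0 to 1, then 10, 10 and 24) and Trac. The CPM of the list summed to 8.54 to 18.1 in the young and to 14.0 to 19.6 in the old libraries, and Cd4 alone held 1.31 to 10.2 and 1.23 to 10.3 CPM of this. Old 1 had the highest sum of the list, with 0 counts of Cd3d, Cd3e and Cd3g. The part of T cell transcripts in the members' levels was not tested. The B cell markers summed to 130 to 253 CPM in young and to 135 to 365 in old libraries. Of 5 B cell markers tested 2, Cd79a and Ms4a1, had over 10 counts only in old libraries. Of the other 3, 2 were above 0 in log2 fold change (median 0.005), against 48.8% of all genes. An unadjusted p under 0.05 was found for 0 of the 5.

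Other ligands of the costimulatory and checkpoint pathways gave the smallest p of the pathway genes. Of 20 on the list 15 were tested, and 1 of these, Tnfsf4, only through an old library. Of the other 14, 8 were above 0 in log2 fold change (median 0.21, against 48.8% of all genes above 0). An unadjusted p under 0.05 was found for 7 of the 14 (18.9% of all genes). Of the 15, 0 passed with edgeR or limma-voom. Nectin2, a ligand of TIGIT and CD226, had 72.2, 62.9, 51.9 and 72.9 CPM in young and 33.0, 24.5 and 41.2 in old libraries. The ages did not overlap, and the log2 fold change was -0.98 (SE 0.20, edgeR adjusted p = 0.0651). Nectin2 passed with limma-voom with sample quality weights, with DESeq2, without the filter on low counts, and without Old 2 and Young 3 together. Icam1, the adhesion ligand of LFA-1 that also costimulates T cells, had 568, 537, 447 and 520 CPM in young and 265, 229 and 372 in old libraries, again without overlap, with a log2 fold change of -0.84 (SE 0.19, edgeR adjusted p = 0.0801). It passed with the same weights and with DESeq2. Cd48 was at 102 ± 2.71 CPM in young (SD, n = 4) and 140 ± 34.2 in old mice (SD, n = 3), without overlap, with a log2 fold change of 0.45 (edgeR adjusted p = 0.181) that was 0.23 without Old 2. Cd24a was at 6.56 ± 4.81 CPM in young (SD, n = 4) and at 9.45, 111 and 15.8 in Old 1, 2 and 3, with a log2 fold change of 2.79 (edgeR adjusted p = 0.161) that was 0.95 without Old 2.

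Of the 15 CD40 signalling genes, all tested, 11 were below 0 and 4 above (median log2 fold change -0.34), 6 did not overlap between ages, all of them lower in old mice (9.07% of all genes), 6 had an unadjusted p under 0.05 (18.9% of all genes), and 0 passed with edgeR or limma-voom. Rela, the p65 subunit of NF-kB, was at 142 ± 9.21 CPM in young (SD, n = 4) and 102 ± 8.11 in old mice (SD, n = 3), with a log2 fold change of -0.49 (edgeR adjusted p = 0.0886). Relb, a subunit of the noncanonical pathway that CD40 engages, was at 36.4 ± 2.34 and 24.3 ± 4.34, with a log2 fold change of -0.59 (edgeR adjusted p = 0.0979). Map3k14, the kinase of that pathway, was at 25.7 ± 3.10 and 17.7 ± 3.24 (edgeR adjusted p = 0.149), and Nfkb2 at 63.7 ± 3.05 and 46.9 ± 9.58 (edgeR adjusted p = 0.168). DESeq2 called 3 of the 15, against 7.61% of all genes. These were Rela, Relb and Tnfaip3, the last chosen here after its values were seen. Without Old 3 edgeR called Tnfaip3. The log2 fold change of Cd40 itself was above 0.

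PD-L1 is induced by interferon-gamma through JAK kinases and IRF1 and is held at the surface by CMTM6 and CMTM4. Of 15 genes on this list, all tested, 6 were above and 9 below 0 (median log2 fold change -0.07), against 48.8% of all genes above 0. An unadjusted p under 0.05 was found for 3 (18.9% of all genes). The ages did not overlap for 2 higher and 1 lower in old mice, against 8.67% and 9.07% of all genes. With edgeR or limma-voom 0 passed. Jak2, which lies on chromosome 19 as Cd274 does, had 16.8, 13.2, 13.4 and 17.4 CPM in young and 25.2, 31.7 and 21.6 in old libraries. The ages did not overlap, with a log2 fold change of 0.79 (SE 0.18, edgeR adjusted p = 0.0801). Socs3, an inhibitor of cytokine signalling, was at 672 ± 105 CPM in young (SD, n = 4) and 315 ± 156 in old mice (SD, n = 3), also without overlap, with a log2 fold change of -1.09 (edgeR adjusted p = 0.133). Cmtm4 was at 8.84 ± 1.47 and 14.2 ± 5.77 CPM (edgeR adjusted p = 0.255) and Irf9 at 77.1 ± 8.08 and 91.9 ± 6.52 (edgeR adjusted p = 0.304). DESeq2 called Jak2 and Socs3 of the 15, against 7.61% of all genes. Of 5 sheddases, proteases that release such ligands from the surface, 4 were below 0, and 0 passed with edgeR, limma-voom or DESeq2. An unadjusted p under 0.05 was found for 1, Adam15, against 18.9% of all genes. Adam15 was at 388 ± 61.8 CPM in young and 289 ± 37.3 in old mice (edgeR adjusted p = 0.225). Adam17 was at 214 ± 10.8 and 181 ± 6.64 CPM, without overlap (edgeR adjusted p = 0.275).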

How the data were processed

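Polyadenylated RNA of FACS-sorted microglia was amplified with a low-input Smart-seq2 protocol, non-stranded per the labels, 1 library per mouse. The authors mapped the reads to GRCm38 with STAR and quantified GENCODE m15 genes with RSEM, whose versions the sources used here do not give. The submitters' processing notes also name FastQC 0.11.5 and limma. The deposited expected counts are not normalized. The deposited TPM values are scaled within each library and divided by transcript length, the FPKM values deposited by the authors were not used, and the deposited lengths in bases are weighted by transcript abundance. No molecular identifiers are named, and count intervals hold counting error only.

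Expected counts, which summed to 36574083 to 53002386 per library, were rounded. A gene needed over 10 expected counts in 1 library or more, and genes of X, Y and M were removed, by GENCODE vM21 on GRCm38, which lacks 42 of the 17559 genes tested. TMM factors (0.952 to 1.05) and the quasi-likelihood test came from edgeR 4.0.16 (R 4.3.3), with age as the only term. The biological coefficient of variation was 37.2%. The SE is the log2 fold change divided by the root of F, and intervals are at 95%. Marker and pathway genes are named when called, when among the 4 smallest p of their list, or when listed beforehand as receptors or markers. The members and lists were chosen with earlier results of these data known, and the immediate early list and the counts over genes past the minimum in both ages after values were seen.

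Other settings tried were DESeq2 1.42.0 without independent filtering, limma-voom (limma 3.58.1) without or with quality weights of the libraries, upper-quartile and RLE factors, an effective-length offset, no filter and filterByExpr, X, Y and M kept, limma on log2(TPM + 1) and log2(TPM + 0.1), on which scales low genes show smaller changes, and each library left out. The procedure was tested on simulated data. Some genes of the lists are not reported here.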

Additional observations from a re-analysis of the deposited data

Results flagged for a closer look

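In 39 sets of 4 young values, the gap of the highest or lowest value to its neighbour, as a share of the whole range, was compared with Dixon's 95% critical value for 4 samples. It was above it in 5 sets, where chance alone gives about 1.95. For the weighted transcript length of Cd276 the share was 0.977, with Young 3 at 2770 bases and the other young libraries at 3523 to 3541. For that of Cd40 it was 0.872, with Young 4 at 1168 bases and the others at 1069 to 1081. For Lag3 it was 1, but the length in Young 2 differed by under 2 bases from the 2001 bases of the others. The summed CPM of the monocyte markers gave 0.876, with 484 in Young 1 against 181 to 219 in the others, and that of the neutrophil markers 0.952, with 150 in Young 4 against 17.8 to 24.1 in the others. The neutrophil markers summed to 51.7, 180 and 76.8 CPM in old mice. Of the 8 neutrophil markers 7 were above 0 in log2 fold change (Mmp9, Mmp8, S100a9 and Retnlg had the smallest p), and of the 8 border macrophage markers 7 (Pf4, F13a1, Cbr2 and Mrc1), with 0 passing in either list with edgeR, limma-voom or DESeq2, where 1 and 0 had an unadjusted p under 0.05. The monocyte markers were above 0 in 8 of 8 (Ly6c2, Plac8 and Chil3 among those with the smallest p, 6 with an unadjusted p under 0.05, 0 passing with edgeR or limma-voom and 2 with DESeq2), and Ccr2 was at 2.06 to 19.3 CPM in young and 14.1, 231 and 9.09 in old mice.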

How the results depend on the processing

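Of 180 log2 fold changes of the members under the other settings, 170 kept their sign and their side of the threshold, 1 passed it (Pdcd1lg2 with DESeq2, which took the members called from 0 to 1) and 9 turned in sign, none of the last being called. Cd274 was -0.10 with quality weights, -0.026 and -0.032 on log2(TPM + 1) and log2(TPM + 0.1), -0.09 (without Old 2) to 0.31 (without Old 1) with 1 library left out, below 0 also without Young 3 (-0.04) and Old 3 (-0.01), and -0.21 without Old 2 and Young 3, a setting chosen after the data were seen. With 1 library left out, Cd86 was -0.34 (without Old 1) to 0.16 (without Old 2), and 0.03 without Young 4, and Lag3 was -0.69 (without Old 1) to 0.022 (without Old 2). The genes called among all tested were 141 at first, 318 with quality weights, 1337 with DESeq2, 288 without the filter, 64 and 71 on log2(TPM + 1) and log2(TPM + 0.1), and 1 to 159 with 1 library left out. Of the calls 70.9% were higher in old mice, 53.2% with DESeq2, 54.5% without the filter, 58.2% with the length offset and 50% and 47.9% on the TPM scales. The calls on lists were 0 and became, for other ligands, 2 with quality weights, 2 with DESeq2, 1 without the filter and 1 without Old 2 and Young 3. DESeq2 called 1 receptor, Cd226, 3 CD40 signalling genes and 2 of the interferon-gamma list, and 1 CD40 signalling gene passed without Old 3. The cause of these changes was not tested. The median of all genes moved by over 0.1 (log2) with log2(TPM + 0.1) alone, to -0.13. No paired analysis was possible because the labels give no replicate numbers that the ages share. The codes in the labels were 14C, 18C, 23C and 29C for Young 1 to 4 and 2posI, 3posI and 4posI for Old 1 to 3. The labels name no batch. Were these codes to mark separate sets of libraries, age and set could not be told apart. Depth limits what can be said of Pdcd1lg2, with 6 to 35 counts per library, and of the T cell transcripts.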
